A study of Mus musculus with 70 samples.

Results

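The comparison described here sets mice that ran for 14 days against mice that ran for 2 days, and asks how the length of a running bout shows in hippocampal RNA levels. It uses 20 of the 70 RNA-seq libraries of the series, 10 libraries of the group named 14-0-0 and 10 of the group named 0-0-2, chosen by their labels alone. In these names the first number is the days of an initial running period, the second the days of a sedentary delay and the third the days of a closing running period. Mice of 14-0-0 thus ran for 14 days with no delay and no second bout, and mice of 0-0-2 ran only in a closing bout of 2 days. All were male C57BL/6J mice of 12 weeks, housed singly with a voluntary running wheel. Wheels were taken away from both groups on the night before training, so running ended at the same time before the tissue was taken and the groups differ in how long it had lasted. Every mouse of both groups then had 3 min of object location memory training, too short to form a lasting memory in mice that have not run, and the dorsal hippocampus was dissected 1 h later. The labels place the harvest in 2 cohorts, with 5 mice of each group in each cohort.

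Voluntary running is known to raise the birth and survival of granule neurons in the dentate gyrus, to raise neurotrophins such as BDNF, and to change energy supply in muscle, liver and brain. Some of these responses begin within a single night of running, whereas others, such as the maturation of newborn neurons or the turnover of myelin, need weeks. Training in turn switches on immediate early genes, which are transcribed within minutes of neuronal firing and code for transcription factors and synaptic proteins.

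Values are FPKM, fragment counts scaled to the length of the transcript and to the number of mapped reads, and differences are of log2(FPKM + 0.1), 14-0-0 minus 0-0-2, with a standard error (SE). A gene was tested when its mean over all 70 libraries was at least 1 FPKM, which left 12994 of 24346 genes, and was called at an unadjusted p under 0.05 in limma's moderated test (two-sided). The libraries had relative depths from 0.345 to 1.29 (median 0.781) in 14-0-0 and from 0.439 to 1.48 (median 0.821) in 0-0-2, on a scale where sedentary replicate 0 is 1. Their log2 profiles correlated pairwise between 0.911 and 0.980 and no pair was identical. Markers of hippocampal cells were present in all 20 libraries: Prox1 of dentate granule cells lay between 13.3 and 34.2 FPKM, Wfs1 of CA1 pyramidal cells between 31.3 and 119 FPKM, Mbp of myelin between 669 and 2220 FPKM and Gfap of astrocytes between 105 and 240 FPKM. Ttr, a marker of choroid plexus epithelium, a tissue that lies against the hippocampus in the ventricle, ran from 15.6 to 15600 FPKM and exceeded 1000 FPKM in 5 of 10 libraries of 14-0-0 and in 2 of 10 of 0-0-2. Since the libraries hold bulk tissue, fewer cells of a type and less RNA per cell cannot be told apart.

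Few genes separated the longer from the shorter bout. Of the 12994 genes, 203 were called, 151 higher and 52 lower in 14-0-0, which is 1.56% of those tested (1.16% higher and 0.4% lower), where a threshold of 0.05 alone would give 649.7 genes if no gene differed. No gene had an adjusted p under 0.05 in limma with Benjamini-Hochberg adjustment, and the smallest was 0.756. No gene had groups that did not overlap. The called differences were small, with a median size of 0.197 on the log2 scale. The median SE over all tested genes was 0.0911, and the 95% interval of the difference lay within 0.5 of 0 on the log2 scale for 88.2% of the genes and within 0.25 for 50.1%. The counts rested on single libraries: without 0-0-2 replicate 9, a library with a Ttr level of 10700 FPKM, 493 genes were called higher and 311 lower, without 14-0-0 replicate 5 the counts were 314 and 106, without 14-0-0 replicate 8 they were 249 and 65, and without 14-0-0 replicate 1 they were 118 and 32. In the 13 libraries with Ttr under 1000 FPKM 138 genes were called higher and 81 lower, and 72 of the 203 genes were among them in the same direction. Quantile normalization moved the split of higher to lower calls from 151 and 52 to 104 and 89.

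The harvest cohorts gave little in common across genes. In cohort 1 alone 492 genes were called (3.79%), and in cohort 2 alone 169 genes (1.3%). The 2 cohorts shared 10 called genes, of which 6 had the same sign, a share of 2.03% of the calls of cohort 1 and 5.92% of those of cohort 2. Across all tested genes, which are not independent replicates, the cohort differences had a correlation of -0.00484 and the same sign in 46.5%. The 6 genes were Hrsp12, Snora28, Rnf39, Akip1, Cmtm7 and Plin2, all higher in 14-0-0. Of the 203 genes called in the 20 libraries, 201 had the same sign in both cohorts, a count that the choice of the genes by their pooled difference partly fixes. A test of the difference between cohorts (limma, interaction term) was passed by 226 genes at an unadjusted p under 0.05 and by none after adjustment, where the smallest adjusted p was 0.970.

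**Figure D1:**
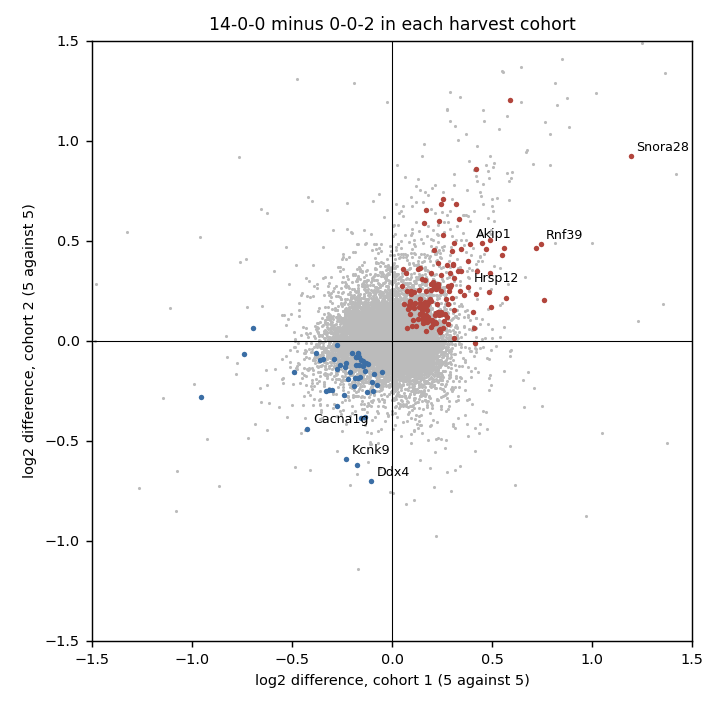
Difference between 14-0-0 and 0-0-2 (log2 of FPKM + 0.1) in cohort 1 on the horizontal axis and in cohort 2 on the vertical axis, 5 libraries against 5 in each, for the 12891 genes within the axes, with 103 genes outside them. Red points are the genes called higher and blue points those called lower in all 20 libraries, and the grey cloud of the other genes is round, with no tilt along the diagonal.

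The gene with the smallest p was Hrsp12 (chromosome 15, 34484022 to 34495246 on mm10, now named Rida), which codes for a deaminase that clears reactive imine intermediates of amino acid breakdown. Its level in 14-0-0 was 41.1, 49.8 and 58.8 FPKM (lowest, median and highest of 10 libraries), against 34.4, 39.5 and 46.9 FPKM in 0-0-2. All 10 libraries of 14-0-0 lay above the median of 0-0-2 and 8 lay above its highest library. The difference was 0.32 (SE 0.06; limma, unadjusted p = 5.82e-05), or 1.25-fold, with 0.38 in cohort 1 and 0.27 in cohort 2. Hrsp12 stayed called under each of the 36 alternatives tried, and in the 13 libraries low in Ttr its difference was 0.39. In the groups outside this comparison its median was 40.5 FPKM in home cage mice, 40.9 in sedentary trained mice, 45.8 in 14-7-0, 41.7 in 14-7-2 and 41.9 in 14-14-0, so that 14-0-0 had the highest median of the 7 groups while 0-0-2 had the lowest, near the sedentary level. Hrsp12 and the other genes of smallest p named below were chosen in these 20 libraries, with the same sign required in both cohorts. Like signs in the cohorts follow from that choice, and calls kept with 1 library left out do so in part. The choice also partly fixes the places of 14-0-0 and 0-0-2 in an order of the 7 groups.

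**Figure D2:**
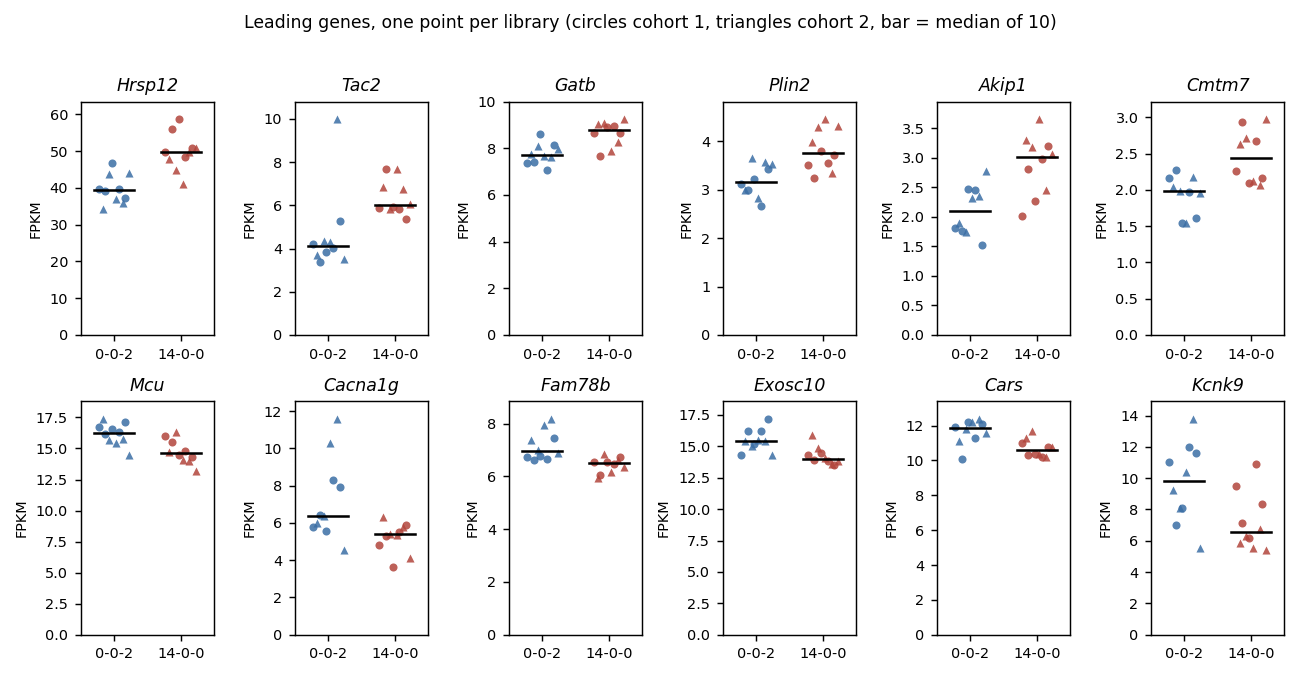
FPKM of 12 genes in each library of 0-0-2 (blue) and 14-0-0 (red), on axes that start at 0, with circles for cohort 1, triangles for cohort 2 and a bar at the median of 10. The upper row holds genes called higher and the lower row genes called lower in 14-0-0, and the groups overlap in every panel.

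Tac2 codes for the neuropeptide neurokinin B. In 14-0-0 its level was 5.37, 6 and 7.7 FPKM (lowest, median and highest), and in 0-0-2 it was 3.36, 4.12 and 10 FPKM. The highest value belonged to 0-0-2 replicate 8, and the other 9 libraries of 0-0-2 all lay below the lowest of 14-0-0. The difference was 0.51 (SE 0.15; limma, unadjusted p = 0.00212), and without 0-0-2 replicate 8 Tac2 was the single gene in any of the fits with 1 library left out to reach an adjusted p under 0.05 in limma, at 0.00483. That fit leaves out the library that went most against the difference. The adjustment covers the genes of the fit and not the choice among the 20 fits. In the libraries low in Ttr the difference was 0.41 and the unadjusted p 0.0729. Tac2 belongs to the list of adult neurogenesis genes, which also held 2 other called members: Sox11, a transcription factor of newborn neurons, at a difference of 0.28 (SE 0.11), and Cd24a, a surface protein of immature neurons, at 0.39 (SE 0.18). Sox11 lay between 1.76 and 3.19 FPKM in 14-0-0 and between 1.57 and 2.82 FPKM in 0-0-2, and 9 of 10 libraries of 14-0-0 exceeded the median of 0-0-2. Cd24a was 5.03, 9.67 and 12.5 FPKM against 4.46, 6.43 and 11.4 FPKM, and its call was lost in 12 of the 20 fits with 1 library left out. Of the 18 tested members of the list 3 were called, all higher, beside 1.16% of all tested genes, and 1 in the libraries low in Ttr. Of the 18, 12 had a higher mean and 6 a lower mean in 14-0-0, and the median difference was 0.05 (-0.00636 at a minimum of 5 FPKM), beside 51.9% of all tested genes with a higher mean and a median over all of them of 0.00341. Dcx, the classical marker of immature granule neurons, had a median of 3.67 FPKM in 14-0-0 and 2.79 FPKM in 0-0-2 and a difference of 0.24 (SE 0.15; limma, unadjusted p = 0.119), which was not called.

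Plin2, which coats lipid droplets, was 3.24, 3.76 and 4.46 FPKM against 2.66, 3.16 and 3.66 FPKM, with every library of 14-0-0 above the median of 0-0-2. Its difference was 0.25 (SE 0.07) over all 20 libraries and 0.18 in the libraries low in Ttr, where it was still called. Crabp1, which binds retinoic acid in the cytosol, was 1.15, 1.74 and 2.32 FPKM against 0.458, 1.23 and 1.75 FPKM. Its difference of 0.64 (SE 0.19) rests on a gene near the minimum level tested.

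Other genes that rose were Rnf39 by 0.61, Akip1, whose product binds the catalytic subunit of protein kinase A, by 0.44, and Cmtm7, a membrane protein of the chemokine-like factor family, by 0.34. Rnf39 averaged 2.066 FPKM in 14-0-0 and 1.345 FPKM in 0-0-2, near the minimum level tested. Akip1 and Cmtm7 averaged 2.5 and 2.2 FPKM over the 20 libraries. Gatb, a subunit of the mitochondrial amidotransferase that helps to form glutaminyl-tRNA, rose by 0.15, and Ift46, of the intraflagellar transport machinery that builds cilia, by 0.15. Rnase4, a secreted ribonuclease, rose by 0.18, and since its gene overlaps that of angiogenin, Ang, reads of the pair may be split between them. The ends of Akip1 overlap those of Denn2b and BC051019 over short stretches, and Rnf39, Cmtm7 and Gatb each overlap a long noncoding RNA gene. All 6 kept their call in each of the 20 fits with 1 library left out, and Rnf39 and Akip1 in each of the 35 alternatives that tested them.

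Ctsb, the gene of cathepsin B, a lysosomal protease that muscle releases during running, was 124, 139 and 154 FPKM in 14-0-0 and 117, 129 and 137 FPKM in 0-0-2. It lay above the highest library of 0-0-2 in 7 of 10 libraries, with a difference of 0.13 (SE 0.05; limma, unadjusted p = 0.00886). Ctsb was the single called gene of the 21 tested neurotrophins and exercise-linked factors, 14 of which had a higher mean, with a list median of 0.03. Of all tested genes 1.16% were called higher. Further called genes of the other lists, each the single called member of its list in its direction, were Lamp5, of a class of cortical interneurons, at 0.25, S100b, an astrocyte calcium-binding protein, at 0.15, Pvalb, the calcium buffer of fast-spiking interneurons, at 0.23, Lyz2, a lysozyme of myeloid cells, at 0.26, and Ndufa3, a subunit of complex I, at 0.16. Pvalb was 40.1, 53.1 and 61.5 FPKM against 28.6, 46.2 and 58.9 FPKM. Lamp5 kept its call in each of the 20 fits with 1 library left out, whereas Pvalb lost it in 8, Lyz2 in 12 and S100b in 14.

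Among the genes that were lower in 14-0-0, Mcu, the pore subunit of the mitochondrial calcium uniporter, was 13.2, 14.6 and 16.3 FPKM, against 14.5, 16.3 and 17.4 FPKM in 0-0-2. All 10 libraries of 14-0-0 lay below the median of 0-0-2, and 5 libraries of 0-0-2 lay above the highest of 14-0-0. The difference was -0.13 (SE 0.04; limma, unadjusted p = 0.00505), with -0.14 in cohort 1 and -0.13 in cohort 2. Ccdc109b, which codes for the inhibitory partner of that pore and is now named Mcub, was also lower, at 1.72, 2.13 and 3.03 FPKM against 1.84, 2.72 and 3.54 FPKM. It was chosen after its values were seen, and its difference was -0.29 (SE 0.12).

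Several called genes code for ion channels that set neuronal excitability. Cacna1g, of the T-type calcium channel Cav3.1, was 3.66, 5.39 and 6.31 FPKM in 14-0-0 and 4.56, 6.4 and 11.6 FPKM in 0-0-2. All 10 libraries of 14-0-0 lay below the median of 0-0-2, and the difference was -0.43 (SE 0.14), with -0.42 and -0.44 in the cohorts. In sedentary mice its median was 6.45 FPKM and in home cage mice 4.67 FPKM. Kcnk9, of the two-pore leak channel TASK-3, was 5.41, 6.54 and 10.9 FPKM against 5.57, 9.84 and 13.8 FPKM, a difference of -0.41 (SE 0.16). Kcna3, of the delayed rectifier Kv1.3, differed by -0.27 (SE 0.13), a call that was lost in 13 of the 20 fits with 1 library left out. These 2 were the called members among 49 potassium channel genes, of which 21 had a higher and 28 a lower mean, with a list median of -0.02. Of all tested genes 0.4% were called lower. The split of potassium channel means was 32 higher and 17 lower in the libraries low in Ttr, with 1 called lower, and 33 and 16 once the choroid plexus score was in the fit, with none called.

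The remaining genes of smallest p in this direction were Ddx4, a germ cell RNA helicase that is barely above the minimum level here (1.17 against 1.69 FPKM in the medians), Fam78b, Adnp, a homeobox chromatin protein, Exosc10, the nuclease of the nuclear exosome, Rnpep, an aminopeptidase, Cars, the cysteinyl-tRNA synthetase, Dus4l, a tRNA dihydrouridine synthase, and 1700030J22Rik. They fell by 0.12 to 0.62 on the log2 scale. Adnp, which fell most, averaged 1.5 FPKM in 14-0-0 and 2.3 FPKM in 0-0-2, not far above the minimum level tested. Its gene lies within Gm20716, a long noncoding RNA gene, so reads of the pair may be split between them. Pcdhga9 also fell, by 0.33, but shares its constant exons with the whole gamma protocadherin cluster, so that reads may be split among neighbouring genes. Fam78b was lower than the lowest library of 0-0-2 in 7 of 10 libraries and Adnp in 7 of 10, and Celf6, an RNA-binding protein of neurons, fell by 0.27. All of these kept their call in each of the 20 fits with 1 library left out, which their choice by their values in these libraries partly fixes.

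Among the 5 largest differences in each direction, over called genes at an average level of 5 FPKM or more, 5 of the 10 belonged to small RNA genes inside other genes, which libraries of polyadenylated RNA measure poorly. Snora41 was listed at 0 in all 10 libraries of 0-0-2 and in 5 of 10 of 14-0-0. Mir6992 was at 0 in 9 libraries of 0-0-2 and 5 of 14-0-0, Mir6392 in 6 and 10, and Snora52 in 2 and 6. No fold is given for these, and the calls of Mir6992 and Snora52 were each lost in 14 of the 20 fits with 1 library left out. Snora28 (chromosome 12, within Eif5) was detected in every library, at 197, 420 and 963 FPKM in 14-0-0 and 87.3, 207 and 359 FPKM in 0-0-2, a difference of 1.06 (SE 0.27). Cox8b, a heart and muscle form of a cytochrome c oxidase subunit, was 0.919, 5.4 and 27.6 FPKM against 0.413, 1.78 and 11.4 FPKM, a difference of 1.70 (SE 0.63). The 5 libraries with over 10 FPKM of Cox8b all had over 1000 FPKM of Ttr, and in the libraries low in Ttr its difference was 0.82 (limma, unadjusted p = 0.145).

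The choroid plexus list had the largest median difference of the 38 lists, with no member passing the test. Ttr, which carries thyroid hormone in cerebrospinal fluid, was 25.6, 2220 and 15600 FPKM in 14-0-0 and 15.6, 99.1 and 10700 FPKM in 0-0-2. The groups overlapped over nearly their whole range, and the difference was 2.66 (SE 1.31; limma, unadjusted p = 0.0562). All 24 members of the choroid plexus list had a higher mean in 14-0-0 and none was called, with a median difference of 1.52, and Otx2, their transcription factor, and Kcnj13, a potassium channel, differed by 1.63 and 2.15. Without 0-0-2 replicate 9 all 24 were called higher, and in the libraries low in Ttr none was, with 22 higher, 2 lower and a median of 0.31. Lists of neighbouring tissue moved with them: all 14 ependymal genes and 15 of 17 meningeal genes had a higher mean, with medians of 0.23 and 0.21 and none called, and these medians were -0.14 and -0.02 in the libraries low in Ttr. With the choroid plexus score of each library added to the fit 147 genes were called higher and 43 lower, and 74 of the 203 calls remained. The part of the choroid plexus RNA in the other differences was not tested beyond these fits.

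**Figure D3:**
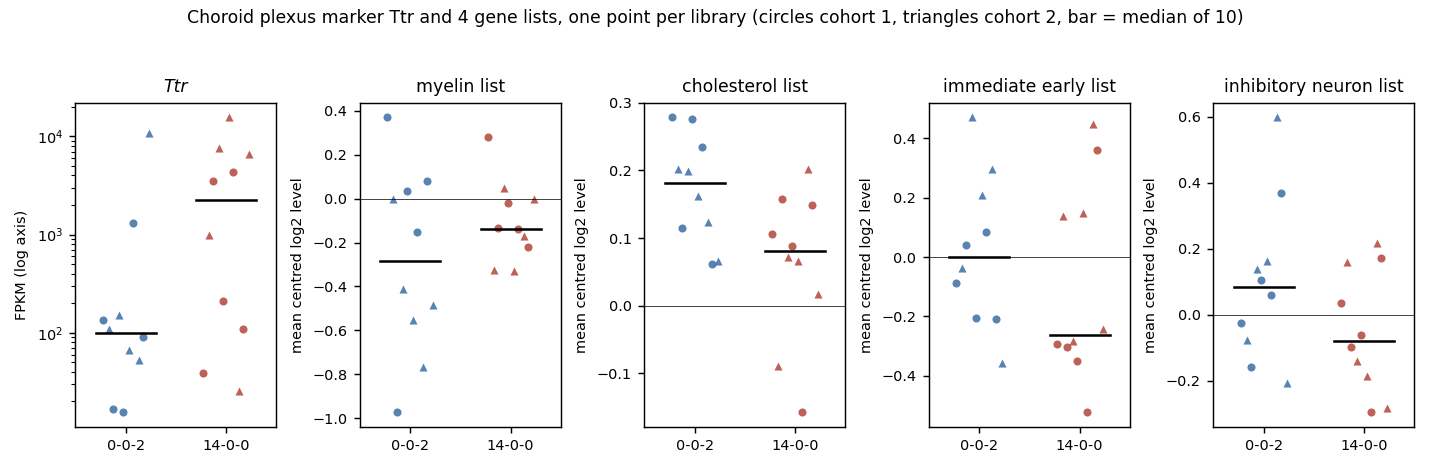
Ttr in FPKM on a log axis and the mean centred log2 level of 4 gene lists (per library, each gene centred on its mean over all 70 libraries), with circles for cohort 1, triangles for cohort 2 and a bar at the median of 10 libraries. Ttr spans 15.6 to 15600 FPKM, the myelin list reaches lower in 0-0-2 than in 14-0-0, and the cholesterol list is lower in 14-0-0 at the median, with overlap in each panel.

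Myelin genes leaned to the longer bout. All 24 tested genes of mature oligodendrocytes and myelin had a higher mean in 14-0-0, none was called, and their median difference was 0.18. Opalin, an oligodendrocyte membrane protein, was 24.6, 35.3 and 41.8 FPKM in 14-0-0 and 15.5, 27.2 and 44.6 FPKM in 0-0-2, a difference of 0.31 (SE 0.16; limma, unadjusted p = 0.0709). Mog, of the outer myelin sheath, was 41.1, 52.5 and 65.9 FPKM against 24.9, 44.9 and 67.7 FPKM, a difference of 0.26 (SE 0.16). The 0-0-2 libraries spread widely, with list levels from -0.97 to 0.37, whereas those of 14-0-0 lay between -0.33 and 0.28. The median difference was 0.10 in cohort 1 and 0.28 in cohort 2, and stayed at 0.18 in the libraries low in Ttr. The sedentary and home cage groups had median list levels of 0.10 and 0.05, above both -0.14 in 14-0-0 and -0.28 in 0-0-2. Genes of oligodendrocyte precursors and differentiation showed less of this, with 10 higher and 8 lower means and a median of 0.04.

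Cholesterol genes leaned the other way. Neurons and glia make their own cholesterol behind the blood-brain barrier, and the transcription factor SREBP2 raises the enzymes of the pathway together. Of 24 tested genes of cholesterol synthesis and uptake 22 had a lower mean in 14-0-0, and 1 was called, lower. Of all tested genes 0.4% were called lower. Sqle, squalene epoxidase, was 20.3, 26.6 and 29 FPKM against 24.2, 27.1 and 33 FPKM, a difference of -0.15 (SE 0.07; limma, unadjusted p = 0.0551). Hmgcs1, the synthase at the entry of the pathway, was 63.4, 89 and 105 FPKM against 80.1, 94.9 and 110 FPKM, a difference of -0.12 (SE 0.08) that was not called. Tm7sf2, a sterol reductase, and Acat2, a thiolase, differed by -0.21 and -0.13, also not called. The list median was -0.11, with -0.09 in cohort 1 and -0.10 in cohort 2, and lay between -0.13 and -0.07 over the 36 alternatives. Without 0-0-2 replicate 9 the called members numbered 4.

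Across the 7 groups, the 3 that ran until the night before training had the highest levels of the cholesterol list. Its median over 10 libraries was 0.18 in 0-0-2, 0.08 in 14-0-0 and 0.06 in 14-7-2, and -0.03 in sedentary mice, -0.06 in 14-14-0, -0.11 in home cage mice and -0.18 in 14-7-0. The ranges of the single libraries overlapped between neighbours in this order, and no test was made of it.

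**Figure D4:**
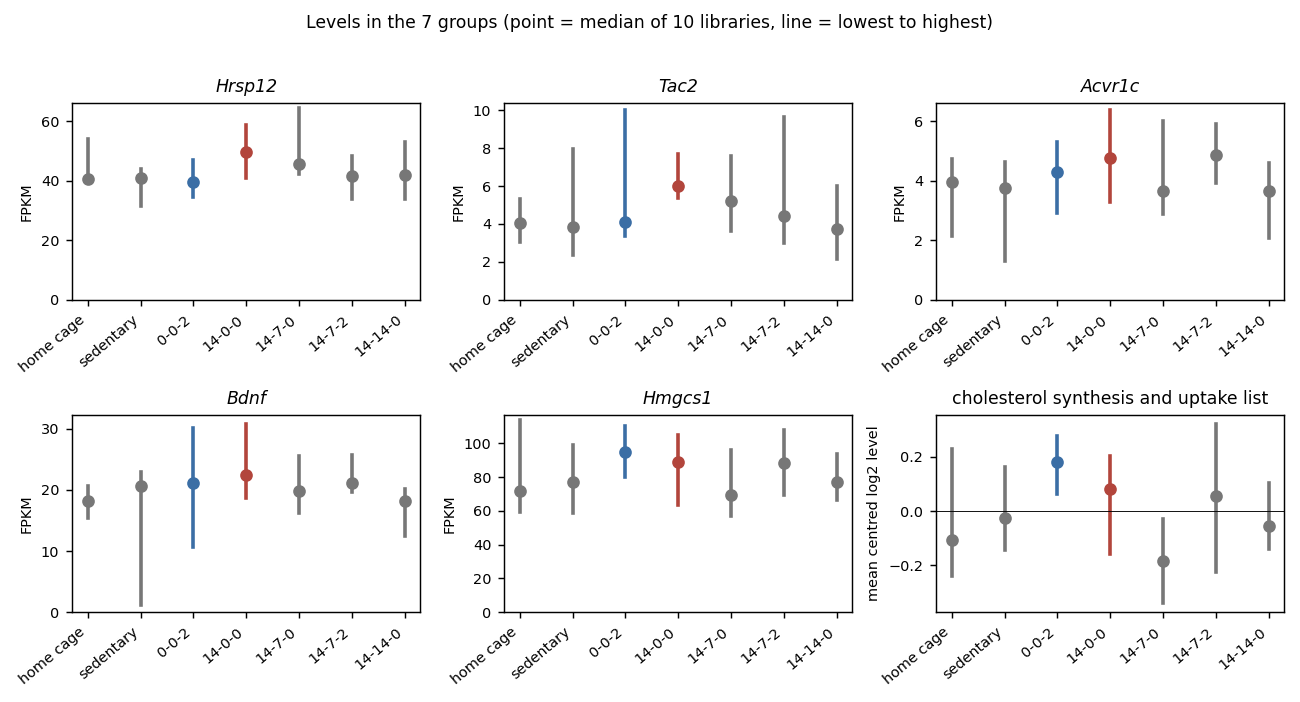
Levels of 5 genes in FPKM, on axes that start at 0, and of the cholesterol list as a mean centred log2 level, in the 7 groups, with the median of 10 libraries as a point and a line from the lowest to the highest library. The 14-0-0 group (red) has the highest median of Hrsp12 at 49.8 FPKM and of Tac2 at 6 FPKM, and 0-0-2 (blue) has the highest of the cholesterol list at 0.18. Hrsp12 and Tac2 were chosen for being higher in 14-0-0 than in 0-0-2, which partly fixes these ranks.

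The sequence upstream of the starts of the cholesterol genes is shown. These genes were listed by pathway, so a motif they share describes the list, whatever its lean in these libraries. RefSeq promoters on GRCm38.p6, the assembly of mm10, were matched by symbol for 17 of the 24 genes, and the 250 bases before the start were searched on both strands for CCAAT, which reads ATTGG on the other strand and is the motif of nuclear factor Y, a partner of SREBP2. It stood in 16 of the 17 genes, or 94.1%, beside 40.3% of the 9814 tested genes in the table and 37.5% of all 27025 genes in it. The sterol element letters TCACCCCA, searched likewise, stood in 2 of the 17 genes and in 1.69% of the tested and 1.54% of all genes. The windows of Hmgcs1, of Msmo1, an enzyme that removes methyl groups from sterols, and of Tm7sf2 follow, from 5' to 3' along the gene, with each CCAAT or ATTGG in capitals. The window of Tm7sf2 lies within the neighbouring gene Vps51.
Hmgcs1, chr13:119690101-119690350, plus strand: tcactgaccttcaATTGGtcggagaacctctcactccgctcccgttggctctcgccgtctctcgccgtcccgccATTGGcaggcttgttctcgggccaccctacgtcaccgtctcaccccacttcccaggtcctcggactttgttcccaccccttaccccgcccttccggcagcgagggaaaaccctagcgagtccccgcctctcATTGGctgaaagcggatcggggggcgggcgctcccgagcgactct
Msmo1, chr8:64733579-64733828, minus strand: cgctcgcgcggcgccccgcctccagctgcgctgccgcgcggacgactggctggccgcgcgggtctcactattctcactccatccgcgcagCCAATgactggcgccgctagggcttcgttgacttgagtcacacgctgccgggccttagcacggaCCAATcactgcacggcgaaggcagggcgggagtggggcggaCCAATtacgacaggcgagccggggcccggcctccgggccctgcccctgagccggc
Tm7sf2, chr19:6067851-6068100, minus strand: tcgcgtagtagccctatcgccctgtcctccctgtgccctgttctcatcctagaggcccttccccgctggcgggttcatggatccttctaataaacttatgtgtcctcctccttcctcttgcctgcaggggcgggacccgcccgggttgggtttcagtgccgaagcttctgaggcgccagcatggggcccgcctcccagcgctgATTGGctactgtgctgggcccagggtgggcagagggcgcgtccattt
A match describes these letters and not a bound site.

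Immediate early genes leaned lower in 14-0-0 in the 20 libraries. Of 29 tested members 25 had a lower mean and 4 a higher mean in 14-0-0, none was called, and the median difference was -0.09. Fos, the founding member of the family, was 1.88, 3.59 and 7.48 FPKM against 2.72, 4.36 and 7.85 FPKM. Egr1, a zinc finger transcription factor, was 32.1, 47 and 60.7 FPKM against 36.1, 49.7 and 85.2 FPKM, and Arc, a synaptic protein made after firing, 16.4, 23.5 and 62.3 FPKM against 18.8, 32.4 and 63.8 FPKM. Their differences were -0.17 (SE 0.22), -0.20 (SE 0.15) and -0.25 (SE 0.24), and Fosl2 differed by -0.20 (SE 0.15). The lean did not hold in every fit: the list median was 0.02 in the libraries low in Ttr, with 16 higher and 13 lower means, and 0.000256 once the choroid plexus score was in the fit. The 250 bases upstream of 22 matched members held TGACGT, the core of the cyclic AMP response element bound by CREB, or its reverse ACGTCA, in 9 genes, or 40.9%, beside 11.7% of the tested and 7.29% of all genes. Fos and Npas4, a neuronal activity factor, are shown with it in capitals. The share of 40.9% describes the list, whatever its lean in these libraries.
Fos, chr12:85473640-85473889, plus strand: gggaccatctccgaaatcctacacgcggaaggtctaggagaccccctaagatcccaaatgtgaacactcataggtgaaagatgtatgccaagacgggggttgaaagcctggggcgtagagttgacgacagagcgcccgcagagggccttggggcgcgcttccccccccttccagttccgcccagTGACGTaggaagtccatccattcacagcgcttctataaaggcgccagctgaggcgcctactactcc
Npas4, chr19:4989972-4990221, minus strand: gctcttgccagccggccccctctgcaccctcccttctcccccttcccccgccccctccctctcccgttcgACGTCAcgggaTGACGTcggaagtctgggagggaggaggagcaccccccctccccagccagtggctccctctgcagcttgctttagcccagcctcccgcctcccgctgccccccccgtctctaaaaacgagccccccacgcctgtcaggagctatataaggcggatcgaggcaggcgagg

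**Figure D5:**
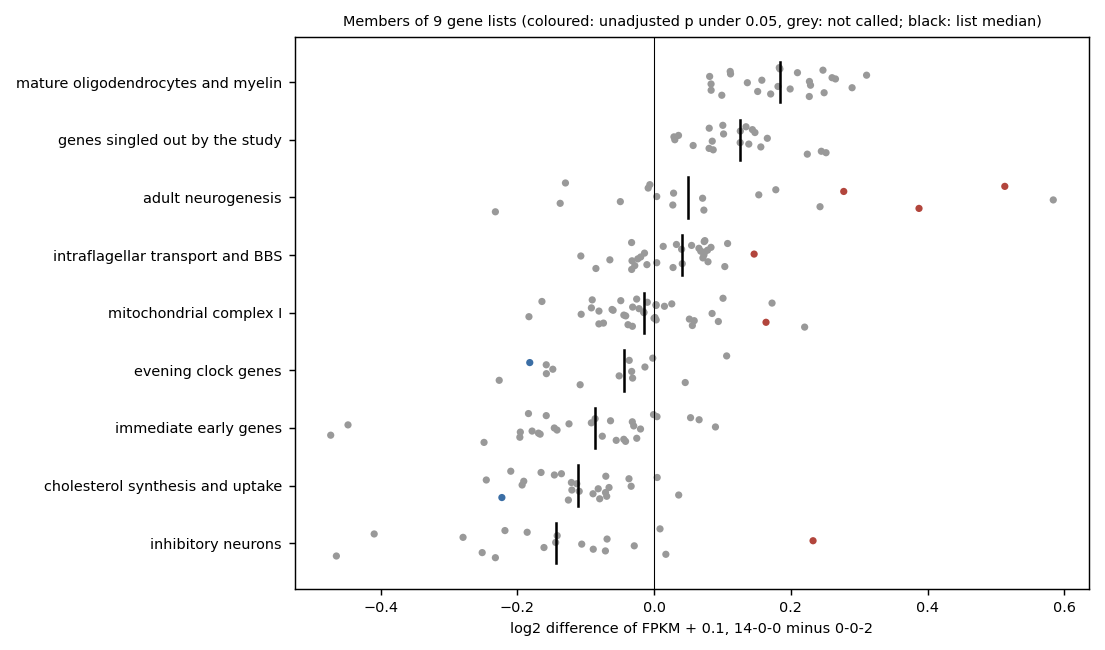
Difference of each tested member of 9 gene lists, 14-0-0 minus 0-0-2 on the log2(FPKM + 0.1) scale, with called members in red (higher) or blue (lower), other members in grey and the list median as a black bar. The 24 myelin genes all lie above 0 and 22 of the 24 cholesterol genes below it, while few points of any list are coloured.

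Inhibitory neuron genes also leaned lower, with 15 of 18 below, 1 called higher (Pvalb) and a median of -0.14. The median was -0.06 (5 higher and 13 lower) once the choroid plexus score was in the fit and -0.07 (7 and 11) in the libraries low in Ttr. Slc32a1, the vesicular GABA transporter, had a median of 21.5 FPKM in 14-0-0 and 24.1 FPKM in 0-0-2, where replicate 4 stood out at 74.5 FPKM. Its difference of -0.28 (SE 0.27) was not called, and was -0.0061 once the choroid plexus score was in the fit. Of 14 clock genes that peak in the evening 12 had a lower mean and Per2, a repressor of the clock, was called lower, at 4.59, 5.51 and 6.15 FPKM against 4.33, 6.48 and 7.25 FPKM (difference -0.18, SE 0.08), a call lost in 8 of the 20 fits with 1 library left out. The clock genes split into 7 higher and 7 lower, with none called, once the choroid plexus score was in the fit, where Per2 differed by -0.13 (limma, unadjusted p = 0.138), whereas 12 of 14 were lower and 2 called lower in the libraries low in Ttr. Dbp, a clock output factor, differed by -0.16 (SE 0.11). Among the dentate granule cell genes Trpc6, a cation channel, was called higher by 0.29 and Calb1, the calcium buffer calbindin, lower, by 0.26, with 13 higher and 5 lower means. Atf4, the factor of the integrated stress response, and Inhba, the subunit of activin A, a ligand of the activin receptors, were called lower, by 0.17 and 0.30. The calls of Trpc6, Calb1, Atf4 and Inhba were each lost in 10 or more of the 20 fits with 1 library left out. Beside these calls of list members, 1.16% of all tested genes were called higher and 0.4% lower.

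The study follows up Acvr1c, the type I receptor of activin and nodal known as ALK7, and uses Bdnf as a control gene. Acvr1c was 3.3, 4.76 and 6.37 FPKM in 14-0-0 and 2.93, 4.31 and 5.3 FPKM in 0-0-2. In 7 of 10 libraries of 14-0-0 it lay above the median of 0-0-2. The difference was 0.22 (SE 0.12, 95% interval -0.03 to 0.48; limma, unadjusted p = 0.0859; permutation test, p = 0.0994), and similar in the cohorts, at 0.24 and 0.21. Without 14-0-0 replicate 5 it was 0.28 (limma, unadjusted p = 0.0266), and it also passed 0.05 without 0-0-2 replicate 0 or 3, whereas without 0-0-2 replicate 8 it was 0.17 (unadjusted p = 0.168). Its median was 3.95 FPKM in home cage mice, 3.76 in sedentary, 3.65 in 14-7-0, 4.88 in 14-7-2 and 3.64 in 14-14-0, so that the 3 groups that ran until the night before training had the highest medians. The study took Acvr1c from the genes called higher than in sedentary mice in 14-0-0 and 14-7-2 alone in these same libraries. That choice partly fixes the places of 14-0-0 and 14-7-2 in this order, and not that of 0-0-2. The study also gave the signalling role of the receptor as a reason. It measured Acvr1c by RT-qPCR in the same samples and, after 14 days of running, in a separate cohort.

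Bdnf was 18.7, 22.5 and 30.8 FPKM in 14-0-0 and 10.7, 21.2 and 30.1 FPKM in 0-0-2. The medians lay close together, and the 2 lowest libraries of the 20 were replicates 4 and 8 of 0-0-2, at 13 and 10.7 FPKM. The difference was 0.24 (SE 0.15, 95% interval -0.07 to 0.56; limma, unadjusted p = 0.124; permutation test, p = 0.15). It was 0.43 in the libraries low in Ttr (limma, unadjusted p = 0.0456) and 0.31 without 0-0-2 replicate 3 (unadjusted p = 0.0458), but 0.15 without 0-0-2 replicate 8 (unadjusted p = 0.266). The interval does not reach a doubling in either direction, and it leaves a rise of up to 0.56 on the log2 scale undetected.

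The study singled out 21 genes, Acvr1c and Bdnf among them, in these same libraries. It chose genes called higher than in sedentary mice only under the running schedules that enabled memory formation. The group 14-0-0 had such a schedule and 0-0-2 did not. That choice partly fixes a higher level in 14-0-0 than in 0-0-2, so the direction of these genes here is not independent evidence. All 21 had a higher mean in 14-0-0 than in 0-0-2, none was called, and the median difference was 0.13. The largest were Ano3, a calcium-dependent channel or scramblase, at 0.25 (SE 0.13; limma, unadjusted p = 0.0629), Bdnf and Acvr1c, followed by Neurod6, a transcription factor of pyramidal neurons, at 0.17, Epha4, an ephrin receptor, at 0.16, Rasgrp1, a Ras activator, at 0.15 and Rragd, a GTPase of the mTORC1 pathway, at 0.14. Fgf13, Synpr, Gabra4, Robo2, Rasa1 and Zbtb18 differed by 0.10 to 0.14, and Btbd3, Kcnj3, Sprn, Cnksr2, Fam49a, Ppp1r1a, Necab3 and Npy1r by 0.03 to 0.09. The level of this list was -0.33 in 0-0-2 replicate 4 and -0.55 in 0-0-2 replicate 8, below all other libraries of both groups, which lay between -0.03 and 0.30. Without 0-0-2 replicate 8 the median difference was 0.05, the lowest of the 36 alternatives, and the highest was 0.18, in the libraries low in Ttr.

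In each of the remaining lists at most 1 member was called, beside 1.56% of all tested genes. None of 34 genes of mitochondrial complexes III, IV and V was called (20 higher and 14 lower means), nor any of 79 cytosolic ribosomal protein genes (43 and 36, or 73 and 6 with 6 called higher once the choroid plexus score was in the fit), 29 genes of histone deacetylases, CREB and coactivators (12 and 17), 15 glutamate receptor subunits (4 and 11), 12 GABA-A receptor subunits (7 and 5), 18 Eph receptors and ephrins (9 and 9), 25 genes of glucose, lactate and ketone handling (13 and 12), 19 glucocorticoid-responsive genes (11 and 8), 20 heat shock and cold-inducible genes (10 and 10), 7 clock genes that peak in the morning (5 and 2), 20 microglial (11 and 9), 19 endothelial (15 and 4), 12 mural (7 and 5), 14 CA1 (8 and 6), 13 CA3 (6 and 7) or 9 thalamic genes (5 and 4). Their median differences lay between -0.04 and 0.05. These splits depended on the libraries and the fit. In the libraries low in Ttr the means of complexes III, IV and V were higher for 30 genes and lower for 4, and those of complex I for 33 and 4, against 15 and 22 in all 20 libraries. Once the choroid plexus score was in the fit microglial genes split into 19 and 1 and Eph receptors and ephrins into 14 and 4. A single member was called in each of the lists of 37 complex I genes, 31 intraflagellar transport and Bardet-Biedl genes, 20 astrocyte genes, 22 endoplasmic reticulum genes, 11 neocortical genes, 25 late activity-induced genes, 22 genes of activin, TGF-beta and BMP receptors and Smads and 6 blood genes, with Inhba a member of both the late activity-induced and the activin lists. All 6 blood genes had a higher mean, with a median of 0.35, which was 0.23 in the libraries low in Ttr and 0.80 once the choroid plexus score was in the fit, with none called in either. Abundant members had like levels in the groups: Hspa8 had a median of 1030 FPKM in 14-0-0 and 1050 FPKM in 0-0-2, Aldoa of 1370 and 1380 FPKM, Gria1 of 246 and 250 FPKM and Rplp1 of 1030 and 1060 FPKM.

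The groups that the selection did not use place the 203 called genes. By the median log2 level over 10 libraries, sedentary trained mice were nearer to 0-0-2 than to 14-0-0 for 123 of the 151 higher genes (81.5%) and 42 of the 52 lower genes (80.8%), beside 62.6% of all tested genes. Home cage mice were nearer to 0-0-2 for 64.9% and 67.3%, beside 52.8%. Among the groups with a delay, 14-7-2 was nearer to 0-0-2 for 77.5% of the higher and 50% of the lower genes (58.1% of all), 14-7-0 for 67.5% and 46.2% (52.8% of all), and 14-14-0 for 44.4% and 59.6% (50.6% of all). These shares are a description with no test.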

How the data were processed

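Polyadenylated RNA from the bilateral dorsal hippocampus was made into TruSeq libraries, a kit that keeps no strand, so overlapping genes cannot be told apart. The authors aligned the reads with ELAND and Bowtie and dropped reads that matched several places, which lowers near-identical genes. The submitters' notes name Cuffnorm and mm10. The deposited table holds FPKM per gene for 70 libraries, normalized by the authors; read counts are not given, so depth was estimated from the steps between low FPKM values. Groups and harvest cohorts follow the labels.

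From the FPKM, log2(FPKM + 0.1) was tested in limma 3.58.1 (R 4.3.3, with an intensity trend for the variance prior and Benjamini-Hochberg adjustment, two-sided) on the 20 libraries of 14-0-0 and 0-0-2 with no covariate, for genes averaging 1 FPKM or more. limma stands in for the Cyber-T test of the study's methods, which is an alternative. A fold change on this scale understates changes of low genes. Acvr1c and Bdnf also had a permutation test (100000 resamples, two-sided, scipy 1.17.1). Each library is a separate sample by its label, and p-values measure the spread between these samples. The scripts were tested on simulated data.

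Named genes were the 12 of smallest p in each direction with the same sign in both cohorts, the 5 largest differences in each direction at a mean of at least 5 FPKM, called members of 38 lists of 876 genes (or the most abundant member), the 21 genes the study singled out and 6 markers; members of lists that were described without being called were added after their values were seen. Some genes that this rule names are not reported here. The comparison, members and lists were chosen with earlier results of these data known. A list's level in a library is the mean of its genes' log2 values, each centred over 70 libraries. Alternatives were 2 scalings, 3 filters, another pseudocount, 4 other models, Cyber-T, each cohort, another threshold and each library left out; leaving out small RNA genes and libraries with Ttr of 1000 FPKM or more was added after seeing the data. Positions and promoters are from RefSeq, GRCm38.p6.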

Additional observations from a re-analysis of the deposited data

Results flagged for a closer look

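In 28 of 224 groups of 10 libraries examined (112 genes in both groups), the highest or lowest library stood apart by Dixon's gap. Independent values of normal spread would give about 1 in 20, or 11.2. The gaps were taken on FPKM, and genes of the same tissue vary together, so 28 beside 11.2 does not measure an excess. Among leading genes the libraries that stood apart were the highest of 14-0-0 for Snora28 (963 FPKM), Adnp (3.34 FPKM), Snora52 (35.8 FPKM) and Gm2a (21 FPKM), and of 0-0-2 for Tac2 (10 FPKM), Adnp (4.85 FPKM), Mir6992 (166 FPKM), Cox8b (11.4 FPKM), Acadm (28.5 FPKM) and Ctsl (72.6 FPKM). Markers of neighbouring tissue and vessels stood apart in 14-0-0 for Ttr (15600 FPKM), Igf2 (165 FPKM), Col1a2 (6.93 FPKM) and Vtn (50.6 FPKM), and in 0-0-2 for Ttr (10700 FPKM), Otx2 (22.2 FPKM), Kcnj13 (88.9 FPKM), Igf2 (131 FPKM), Vtn (55.8 FPKM), Bsg (416 FPKM) and Rarres2 (23.8 FPKM). Neuronal and glial genes did so in 0-0-2 for Slc32a1 (74.5 FPKM), Prkcd (74.2 FPKM), Arc (63.8 FPKM) and Fosl2 (17.4 FPKM), at the low end in 0-0-2 for Gria1 (175 FPKM) and Epha4 (46.4 FPKM), and in 14-0-0 for Mbp (2220 FPKM).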

How the results depend on the processing

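The 203 calls, 151 higher and 52 lower, moved with most choices. Counts of higher and lower genes were 147 and 52 with a pseudocount of 1, 215 and 97 at a minimum of 0.1 FPKM, 90 and 31 at 5 FPKM, 279 and 154 with no filter, 132 and 59 with median ratio scaling, 104 and 89 with quantile normalization, 136 and 47 in a joint fit, 187 and 68 with cohort as a covariate, 147 and 43 with the choroid plexus score, 79 and 33 by Cyber-T on FPKM, 150 and 31 by Cyber-T on log2 values, 298 and 194 in cohort 1, 99 and 70 in cohort 2, 20 and 8 at an unadjusted p under 0.01, 145 and 45 without small RNA genes and 138 and 81 with Ttr under 1000 FPKM. With 1 library left out they ran from 104 to 493 and from 32 to 311, and genes with an adjusted p under 0.05 from 0 to 1. The replicate numbers, used as a replicate block, gave 307 and 151; same-numbered libraries correlated between -0.283 and 0.48, with 3 of 10 pairs over 0.1 and 1 of 10 best with its own number, so they share only a number. No alternative besides the omission of 0-0-2 replicate 8 gave an adjusted p under 0.05. Acvr1c kept its direction throughout, from 0.173 to 0.282 with 1 library left out, and Bdnf from 0.146 to 0.312, with 0.429 at Ttr under 1000 FPKM. Genes that turned were uncalled: in cohort 1 Ppp1r1a (-0.141), Btbd3 (-0.00988) and Necab3 (-0.0632), in cohort 2 Cnksr2 (-0.0333), Npy1r (-0.0383), Kcnj3 (-0.00348), Rasa1 (-0.0171) and Fam49a (-0.0395), and with 1 library left out Ppp1r1a (-0.0451 to 0.102), Btbd3 (-0.0112 to 0.144), Necab3 (-0.0274 to 0.0746) and Npy1r (-0.0394 to 0.0785); the causes were not tested. Depth is known only as a relative value.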

Other observations

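Genes of fatty acid oxidation and lipid droplets, a list put together after Plin2 was seen and so with no test, leaned to the longer bout. Of 34 tested genes 28 had a higher mean in 14-0-0 and 4 were called, all higher, beside 1.16% of all tested genes: Plin2, Abhd5, the activator of droplet lipase, Decr1, a reductase of unsaturated fatty acid breakdown, and Acadm, the medium-chain dehydrogenase of beta oxidation. Abhd5 was 5.89, 7.01 and 8.13 FPKM in 14-0-0 (lowest, median and highest) and 5.15, 6.38 and 6.83 FPKM in 0-0-2, Decr1 was 6.45, 7.86 and 8.49 FPKM against 5.62, 6.61 and 8.02 FPKM, and Acadm was 19.7, 22.6 and 27.9 FPKM against 18.1, 19.8 and 28.5 FPKM. Their differences were 0.19, 0.18 and 0.19, and the groups overlapped for each gene.

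Lysosomal genes, likewise gathered afterwards, had a higher mean in 30 of 33 cases, with 3 called higher (1.16% of all tested genes): Ctsb, Ctsl, another cathepsin, by 0.22, and Gm2a, the activator of ganglioside breakdown, by 0.17. The list medians of 0.10 for fatty acid genes and 0.09 for lysosomal genes were 0.04 and 0.03 in the libraries with Ttr under 1000 FPKM, with 21 of 34 and 21 of 33 higher and 1 and 4 called. With the choroid plexus score in the fit 2 fatty acid genes and 1 lysosomal gene were called. The lysosomal median was 0.01 in cohort 1, with 18 higher and 15 lower means, and 0.15 in cohort 2, with 31 and 2. The lists of calcium channels, tRNA synthetases and the mitochondrial calcium uniporter were also put together after Cacna1g, Cars and Mcu were seen. No test was made of them. All 8 tested alpha-1 subunits of voltage-gated calcium channels had a lower mean in 14-0-0, with Cacna1g alone called and a median of -0.08. Of 20 cytosolic tRNA synthetases 16 were lower, with Cars alone called and a median of -0.03. Of 7 genes of the mitochondrial calcium uniporter, Mcu and Ccdc109b were called lower and 4 others had a higher mean. Of all tested genes 0.4% were called lower.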
